A study of Mus musculus with 14 samples.

Results

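Embryoid bodies formed from mouse cells labelled TKO were compared with undifferentiated embryonic stem cells of the same label. All samples titled TKO EB or TKO ESC were taken, which gave 8 of the 14 arrays of the series, 5 of TKO EB and 3 of TKO ESC. Embryoid bodies (EB) are aggregates in which embryonic stem cells (ESC) differentiate into mixed tissues. TKO is not spelled out in the labels and was taken to mean a triple knockout of the retinoblastoma genes (Rb1, Rbl1, Rbl2), as the series title and common usage have it. TKO EB came from cell lines 2-55-2, 14-14-4, 7-4-1, Dutch and Ta1-12, and TKO ESC from lines 7-4-1, Dutch and Ta1-12. The other 6 arrays were wild type (WT), 3 of WT EB and 3 of WT ESC, each from lines B21, J1 and R1, and were used for comparison. The series text calls the lines of a group biological replicates. The sources used here do not give the time of EB culture, the design of the deleted alleles or whether a line is 1 clone.

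The retinoblastoma family of pocket proteins binds E2F transcription factors and holds back genes of DNA replication and mitosis. In a normal cell, inhibitors of cyclin-dependent kinases (CDK) keep the pocket proteins active, and this is a main route by which differentiating cells stop dividing. ESC cycle fast with little pocket protein activity, and lose a network of pluripotency factors around Pou5f1, Nanog and Sox2 when they differentiate. The series asks whether differentiation and exit from the cell cycle proceed without the family.

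Intensities of single arrays are printed on the linear scale of the deposited values, and for changes and list means they were set to a floor of 32 where lower and then taken to log2. The TKO EB arrays are given in the order 2-55-2, 14-14-4, 7-4-1, Dutch and Ta1-12, and the TKO ESC arrays in the order 7-4-1, Dutch and Ta1-12. Changes are TKO EB minus TKO ESC in log2 units, ± the standard error (SE) of the fit, with n = 5 and n = 3 arrays. The median intensity of the 8 arrays lay between 83.2 and 100.5. The TKO EB arrays were far from alike, with a median SD of a gene of 0.416 on the log2 scale in TKO EB and 0.194 in TKO ESC. TKO EB Dutch correlated across genes at 0.929 with TKO ESC and at 0.881 with the other TKO EB. TKO EB Ta1-12 correlated at 0.956 with WT EB and at 0.875 with the other TKO EB. On the leading principal component, which held 67.5% of the variance, TKO EB Ta1-12 lay at 98.6, 7-4-1 at 67.2, 2-55-2 at 61.4, 14-14-4 at 23.7 and Dutch at -25, while TKO ESC lay between -94.6 and -91.2. Rbl1 intensity was 31.7, 15.9, 38.3, 377 and 1096 in TKO EB and 24.5, 250 and 492 in TKO ESC. It was high on the arrays labelled TKO Ta1-12 and in line Dutch and near or under the floor in the other lines, against 356 to 1090 on the WT arrays. Rb1 intensity was 913, 492, 834, 888 and 300 in TKO EB and 197, 607 and 116 in TKO ESC, with no line at the floor. Rbl2 intensity was 297, 314, 733, 456 and 1099 in TKO EB and 800, 658 and 843 in TKO ESC, again with no line at the floor. Where the probes lie relative to the deleted parts is not known here, and a probe outside a deleted part checks nothing. Results below are therefore also given without line Ta1-12, and without line Dutch, where the count moved by over 1.5 times.

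In TKO EB against TKO ESC, 5132 of 14365 genes passed the threshold of 0.05 on the adjusted p of limma (35.7%). Of these, 2987 were higher (20.8%) and 2145 lower (14.9%) in TKO EB, and 3085 differed at least 2-fold. The counts of every list below are to be read against these shares. Cell line as a block left 3148 genes (21.9%), of which 2064 were higher (14.4%) and 1084 lower (7.55%). Without both arrays of line Ta1-12 the count was 3068 (21.4%), with 1861 higher (13.0%) and 1207 lower (8.4%). Without both arrays of line Dutch it was 5056 (35.2%), with 2829 higher (19.7%) and 2227 lower (15.5%). The direction of the majority turned with the scaling, since quantile normalization gave 2619 genes higher and 2768 lower and median centring gave 2564 higher and 2580 lower. Quantile normalization also moved the median change over all genes to -0.04, against 0.08 with the intensities left as they were. Of the higher genes, 269 lay under the floor on all 3 TKO ESC arrays, so that their change is a lower bound. The floor also hides their spread in TKO ESC, so that their SE and p do not measure it and can be too small. The same holds in part where only some arrays of a group lay under the floor. In bulk RNA, fewer cells of a type and less RNA per cell cannot be told apart.

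The 12 most significant rises were taken among called genes that changed at least 2-fold without overlap between TKO EB and TKO ESC. They included the collagens Col3a1 and Col1a1 and the matrix genes Postn and Lum. Col3a1, a fibrillar collagen, had intensities of 21243, 15487, 24932, 8622 and 19848 in TKO EB against 34.5, 42.3 and 48.8 in TKO ESC. Every TKO EB array stood far above every TKO ESC array, with Dutch the lowest of the TKO EB, and the change was 8.68 ± 0.36 on the log2 scale (limma, adjusted p = 4.03e-08). Postn, a matrix protein of connective tissue, had 9263, 5794, 11146, 3272 and 9021 in TKO EB against 15.9, 19.8 and 18.2 in TKO ESC. It lay under the floor on each TKO ESC array and rose by at least 7.79 ± 0.34 (adjusted p = 4.03e-08). Dlk1, an imprinted membrane protein related to Notch ligands, had 16850, 19427, 20898, 8368 and 12724 in TKO EB against 43, 46.5 and 54.1 in TKO ESC and rose by 8.29 ± 0.36 (adjusted p = 4.03e-08). The groups did not overlap, and 7-4-1 and 14-14-4 were the highest lines. The other probe set of Dlk1 changed by 1.73. Nrp1, a co-receptor of semaphorins and vascular growth factor, had 4114, 5108, 4805, 1615 and 5117 in TKO EB against 15.5, 19.3 and 39 in TKO ESC, again with Dutch lowest among TKO EB and no overlap. It rose by 6.81 ± 0.33 (adjusted p = 1.09e-07). The mesenchymal cadherin Cdh11 rose by at least 7.69 ± 0.40, the small proteoglycan Lum by at least 7.62 ± 0.48 and Col1a1, the main collagen of bone and skin, by 6.93 ± 0.48. The binding protein of insulin-like growth factors Igfbp4 rose by 4.51 ± 0.27, the membrane protein Itm2a by 4.18 ± 0.27, the growth factor Ptn by at least 7.61 ± 0.55 and the imprinted zinc finger factor Plagl1 by 4.87 ± 0.35. Ttr, the thyroid hormone carrier made by visceral endoderm, departed from the order of the matrix genes. Its intensity was 3811, 2713, 2369, 6227 and 15112 in TKO EB against 22.1, 27.4 and 16.3 in TKO ESC, with Ta1-12 highest and Dutch second among TKO EB, and it rose by at least 7.20 ± 0.48 (adjusted p = 2.56e-06).

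The 12 most significant falls were chosen like the rises, among called genes that changed at least 2-fold without overlap between the groups. This choice favours genes that lay low in all 5 TKO EB lines. The core pluripotency factors, which differed widely between TKO EB lines, were not among the 12. Hmces, which shields abasic sites in DNA, had intensities of 568, 800, 721, 617 and 605 in TKO EB against 3464, 3510 and 4617 in TKO ESC. The TKO EB arrays lay within a narrow band well below the TKO ESC arrays, and the change was -2.54 ± 0.18 (limma, adjusted p = 4.88e-06). Gbx2, a homeobox factor of ESC and of the border between midbrain and hindbrain, had 27.3, 17.9, 66.9, 25.8 and 7.8 in TKO EB against 822, 304 and 1064 in TKO ESC. It was under the floor in every TKO EB line but 7-4-1 and fell by 4.12 ± 0.38 (adjusted p = 2.43e-05). Rasgrp2, an activator of Rap1, had 56.4, 86, 28.4, 190 and 78.3 in TKO EB against 1410, 1305 and 1275 in TKO ESC. Dutch was the highest TKO EB array and still far below the lowest TKO ESC array, and the change was -4.16 ± 0.44 (adjusted p = 6.38e-05). The leukocyte sialoglycoprotein Spn changed by -3.45 ± 0.24, the oxidoreductase Enox1 by -3.17 ± 0.36 and the dioxygenase-like Hpdl by -2.91 ± 0.29. Bop1 and Pdcd11, which both act in the maturation of ribosomal RNA, changed by -1.91 ± 0.21 and -1.82 ± 0.21. Ecsit, an assembly factor of respiratory complex I, changed by -1.73 ± 0.20. The photoreceptor genes Ppef2 and Slc24a1 changed by -2.85 ± 0.27 and -2.42 ± 0.21. The cholesterol side-chain cleavage enzyme Cyp11a1 changed by -2.75 ± 0.23, but its other probe sets gave 0.03 to 0.41. Ppef2, Slc24a1 and Cyp11a1 lay under the floor on 4 of the 5 TKO EB arrays and Hpdl on 3. The sizes of these falls are therefore lower bounds, and their SE misses spread hidden by the floor. Each of these 24 rises and falls stayed called with cell line as a block, which their choice for small p and no overlap on the same arrays made likely. Over all called genes the block kept 1977 of 2987 rises and 1051 of 2145 falls.

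**Figure D1:**
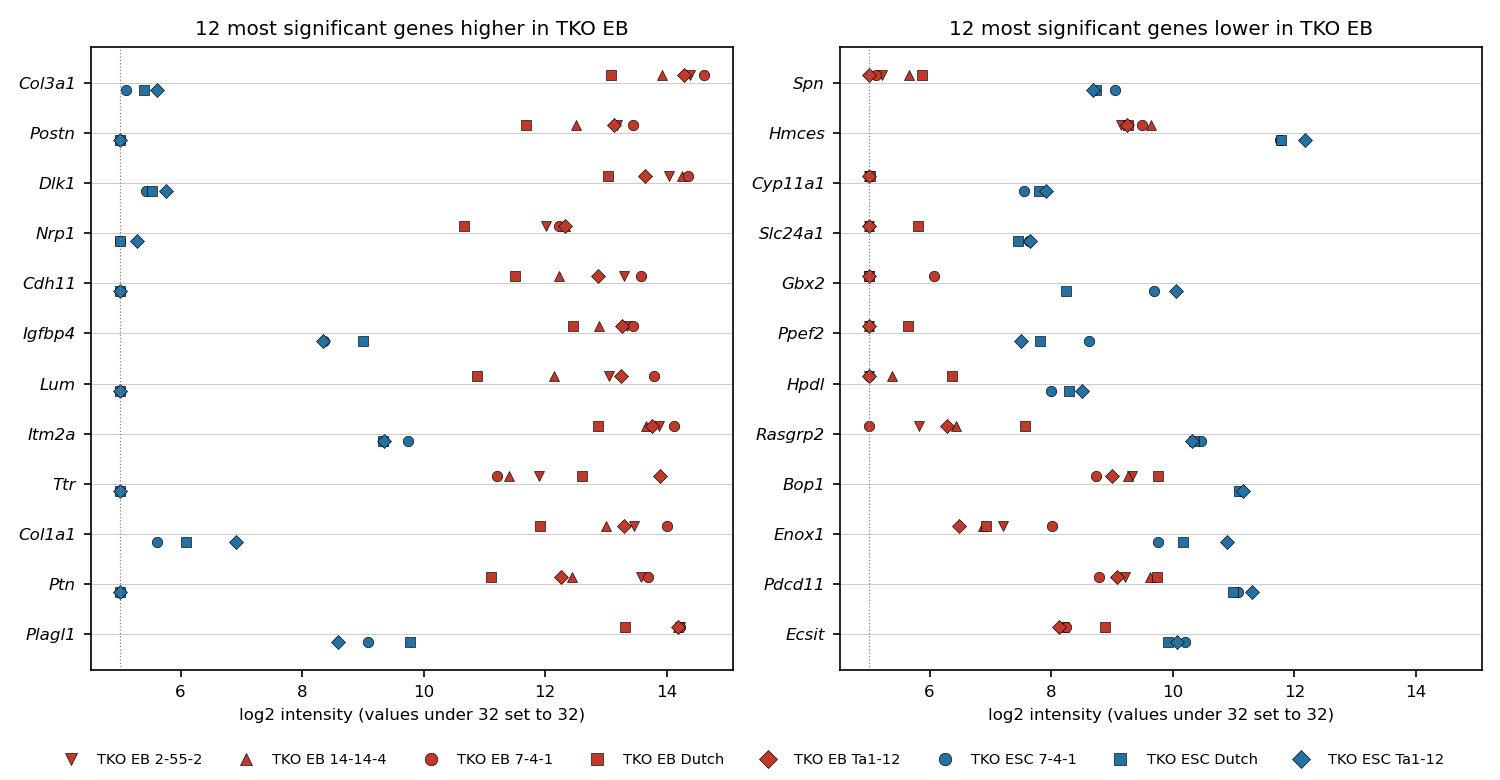
Log2 intensity (horizontal axis, values under 32 set to 32) of the 12 most significant genes higher (left panel) and lower (right panel) in TKO EB, with 5 TKO EB arrays in red and 3 TKO ESC arrays in blue, and 1 marker shape per cell line. Only genes whose groups do not overlap were eligible for this figure. TKO EB Dutch is the TKO EB array nearest to TKO ESC for 11 of the 12 higher genes, Ttr being the exception.

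Genes of the pluripotent state were lower in TKO EB, but to a very different degree in each line. Of 16 core pluripotency factors 9 fell and none rose, with a median change of -2.66 (all genes 0.08). These were Pou5f1, Sox2, Nr0b1, Nr5a2, Tfcp2l1, Esrrb, Zfp42, Klf2 and Prdm14. Pou5f1, the factor without which ESC cannot be kept, had intensities of 1542, 6133, 147, 7410 and 17.1 in TKO EB against 11053, 11814 and 12950 in TKO ESC. It stayed nearest to TKO ESC in Dutch and 14-14-4 and was under the floor in Ta1-12. Its change of -3.90 ± 1.42 passed only narrowly (limma, adjusted p = 0.0473) and did not pass without line Ta1-12 (-2.67, adjusted p = 0.133) or with the spread taken from the 8 TKO arrays alone (adjusted p = 0.121). It was also lost in 6 of the 8 fits that left out 1 array, all but those without TKO EB 14-14-4 or TKO EB Dutch. Nanog had 823, 4333, 203, 8417 and 20.3 in TKO EB against 7931, 8765 and 7474 in TKO ESC. Here TKO EB Dutch lay within the TKO ESC range, and the change of -3.48 ± 1.35 did not pass (adjusted p = 0.0615), though it did without line Dutch (-4.30, adjusted p = 0.0357). Sox2, which neural progenitors also use, had 4196, 8581, 6558, 10809 and 4485 in TKO EB against 12836, 12694 and 12078 in TKO ESC and changed by -0.95 ± 0.27 (adjusted p = 0.0156). No TKO EB array reached the TKO ESC range, Dutch was nearest to it, and the call was lost without line Ta1-12 (-0.84, adjusted p = 0.0722). Nr0b1 changed by -4.23 ± 0.98 (adjusted p = 0.00553) and Nr5a2, a nuclear receptor that acts on Pou5f1, by -2.58 ± 0.62 (adjusted p = 0.00702). Between the ESC and the EB of the same line, the mean of the 16 factors moved by -3.99 in 7-4-1, -0.64 in Dutch and -4.17 in Ta1-12. The count of 9 was 2 without line Ta1-12 and 2 to 11 when 1 array was left out, with 4 without TKO EB 2-55-2, 5 without TKO EB 7-4-1, 2 without TKO ESC 7-4-1, 2 without TKO ESC Dutch and 3 without TKO ESC Ta1-12. The median stayed at -2.40 without line Ta1-12.

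Of 18 other genes restricted to ESC, 13 fell, among them Zfp296 (-3.68 ± 0.75, limma adjusted p = 0.00281) and Rex2 (-3.53 ± 0.75, adjusted p = 0.00347), with a list median of -3.57. The count was 3 without line Ta1-12, where the median was -2.94, and 5 or 6 without 1 of the TKO ESC arrays. Of 11 genes of the primitive ectoderm, the tissue that follows the naive state, 6 fell and Sall2 rose, with a median of -1.85. Foxd3, a forkhead factor of ESC and neural crest, had intensities of 62.2, 102, 20.2, 99.5 and 6.8 in TKO EB against 274, 328 and 587 in TKO ESC and changed by -2.70 ± 0.53 (adjusted p = 0.00218). The groups did not overlap, and 7-4-1 and Ta1-12 were under the floor. Sall2, a zinc finger gene of the same family as Sall4, rose by 1.83 ± 0.36 (adjusted p = 0.00222). The count of 6 was 1 without line Ta1-12, 4 without line Dutch, and 2 or 3 without TKO EB 7-4-1, without TKO EB Ta1-12 or without 1 of the TKO ESC arrays. Of 12 germline genes 6 fell (Piwil2, Dnd1, Morc1, Ddx4, Prdm1 and Mael), with a median of -2.30. Piwil2, which guards the germline against transposons, had 22.5, 33.4, 18.5, 395 and 21 in TKO EB against 775, 523 and 699 in TKO ESC. Dutch alone among TKO EB stood well above the floor, and the change was -3.62 ± 0.76 (adjusted p = 0.00333). Dnd1, an RNA-binding protein of germ cells, changed by -2.50 ± 0.61 (adjusted p = 0.00772). From ESC to EB of the same line, the mean of the 12 germline genes moved by -3.21 in 7-4-1, 0.71 in Dutch and -3.17 in Ta1-12. The count was 10 without line Dutch, 2 without line Ta1-12, 3 with cell line as a block and 3 without TKO ESC 7-4-1.

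Chromatin genes that accompany pluripotency moved in both directions. Of 13 genes of DNA methylation 7 fell (Zfp57, Tet1, Tet2, Trim28, Dnmt3l, Dnmt3a and Dnmt3b) and 1 rose, with a median of -0.59. Zfp57, which protects methylation at imprinted genes, had intensities of 84.9, 190, 92.8, 176 and 63.1 in TKO EB against 582, 514 and 697 in TKO ESC and changed by -2.42 ± 0.37 (limma, adjusted p = 0.000567). Mbd2, a reader of methylated DNA, had 2018, 2197, 2076, 1444 and 3676 in TKO EB against 419, 410 and 517 in TKO ESC and rose by 2.29 ± 0.24 (adjusted p = 6.17e-05). Neither gene overlapped between the groups. The count of falls was 3 without line Ta1-12 and 4 without TKO ESC Ta1-12, and 2 genes rose with cell line as a block. Dnmt1, the maintenance enzyme, had a change of 0.11. Of 19 Polycomb genes, whose products keep developmental genes silent, 4 rose (Bmi1, Phc2, Cbx8 and Phc3) and 7 fell (Pcgf6, Eed, Pcgf2, Phc1, Cbx7, Jarid2 and Mtf2). The members that fell include Cbx7, Pcgf6 and Phc1, subunits known as prominent in ESC, and Bmi1 and Phc2 are subunits known from differentiated cells. Bmi1 had 1800, 972, 1736, 709 and 1471 in TKO EB against 187, 236 and 425 in TKO ESC and rose by 2.25 ± 0.33 (adjusted p = 0.000383), without overlap. Phc2 rose by 1.72 ± 0.28 (adjusted p = 0.000729). Without line Ta1-12 there were 4 higher and 6 lower. The share of Polycomb genes that rose is near that of all genes (20.8%).

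Few genes of DNA replication and none of mitosis were called between TKO EB and TKO ESC, and 1 line stood apart in both. Of 41 E2F targets of the G1 and S phases 4 fell (Ccne1, Orc1, Mybl2 and Msh6) and Ccne2 rose, with a median of -0.21 (all genes 0.08). Both are smaller shares than those of all genes. Ccne1, the cyclin that activates Cdk2 at the start of S phase, had intensities of 1212, 1346, 742, 1024 and 832 in TKO EB against 3293, 3312 and 3534 in TKO ESC. All TKO EB arrays lay below all TKO ESC arrays, and the change was -1.75 ± 0.33 (limma, adjusted p = 0.00202). Orc1, a subunit of the origin recognition complex, had 490, 759, 434, 1064 and 226 in TKO EB against 2113, 2182 and 2248 in TKO ESC and changed by -2.06 ± 0.45 (adjusted p = 0.00414). Again there was no overlap, and Ta1-12 was the lowest array. The 36 members without a call included the helicase subunits Mcm2 to Mcm7, with changes of -0.36 to -0.05, and Pcna, the sliding clamp, with -0.03. The count of 4 falls was 2 with cell line as a block, 2 without line Ta1-12 and 2 without any 1 of the TKO ESC arrays, and the rise of Ccne2 was not called in any of these.

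Of 35 of these E2F targets with a promoter in the RefSeq table of GRCm38.p6, 15 (42.9%) held an E2F site between 250 bases before and 50 bases after the gene's start. The site was searched as TTTCCCGC, TTTCGCGC, TTTGCCGC or TTTGGCGC on both strands, and no other motif was searched. It was found in 2.26% of all 32851 promoters in the table and in 4.37% of the 11471 tested genes with a promoter. Of the 4 lower targets 2 held the site, as did 13 of the 31 that were not lower (41.9%). The 4 promoters of tested targets with the site and the smallest adjusted p are shown because called and uncalled genes share it. Orc1 and the mismatch repair gene Msh6 were called lower, while the licensing factor Cdt1 (-0.40) and Pola1, the catalytic subunit of DNA polymerase alpha (-0.48), were not called. They lie at chr4:108579204-108579503 on the plus strand for Orc1, chr17:87974800-87975099 on the plus strand for Msh6, chr8:122567765-122568064 on the plus strand for Cdt1 and chrX:93632106-93632405 on the minus strand for Pola1. Each is written 5′ to 3′ on the strand of the gene, with the site in capitals, and the site begins at base -27, 16, 33 and -138 from the start in that order.
Orc1: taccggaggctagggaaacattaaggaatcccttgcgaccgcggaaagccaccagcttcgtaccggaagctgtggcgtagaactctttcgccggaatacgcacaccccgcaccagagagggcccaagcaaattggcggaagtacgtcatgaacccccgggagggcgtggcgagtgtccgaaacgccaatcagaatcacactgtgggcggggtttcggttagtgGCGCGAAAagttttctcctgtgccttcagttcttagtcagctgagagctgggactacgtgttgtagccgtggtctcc
Msh6: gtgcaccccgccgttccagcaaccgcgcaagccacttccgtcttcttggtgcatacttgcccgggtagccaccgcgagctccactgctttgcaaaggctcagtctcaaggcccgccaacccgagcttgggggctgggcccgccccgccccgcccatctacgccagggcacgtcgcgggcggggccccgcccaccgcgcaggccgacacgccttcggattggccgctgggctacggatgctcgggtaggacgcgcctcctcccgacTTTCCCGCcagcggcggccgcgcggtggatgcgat
Cdt1: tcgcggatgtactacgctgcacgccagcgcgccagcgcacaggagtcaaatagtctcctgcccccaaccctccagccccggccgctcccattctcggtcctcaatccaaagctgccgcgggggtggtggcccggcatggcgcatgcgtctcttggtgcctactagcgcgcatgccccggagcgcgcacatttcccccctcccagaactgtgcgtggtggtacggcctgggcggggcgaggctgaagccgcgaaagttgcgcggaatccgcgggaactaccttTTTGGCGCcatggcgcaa
Pola1: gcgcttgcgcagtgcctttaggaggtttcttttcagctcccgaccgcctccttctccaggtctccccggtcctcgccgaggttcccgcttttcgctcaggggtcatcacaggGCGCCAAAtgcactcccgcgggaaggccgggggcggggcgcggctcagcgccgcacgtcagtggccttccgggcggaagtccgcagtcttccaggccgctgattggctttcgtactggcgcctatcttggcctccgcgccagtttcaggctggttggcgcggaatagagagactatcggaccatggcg
A site in these letters is a description of the window and not evidence of binding.

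None of 34 G2/M genes was called in either direction, and their median change was -0.34. Plk1, a kinase of mitotic entry, had intensities of 3583, 3804, 4148, 5166 and 1228 in TKO EB against 5508, 4875 and 4970 in TKO ESC. Ta1-12 stood far below the other 4 lines and Dutch lay within the TKO ESC range, and the change was -0.66 ± 0.39 (limma, adjusted p = 0.202). Bub1b, a kinase of the spindle checkpoint, had 2653, 3280, 3010, 4425 and 913 in TKO EB against 4154, 4518 and 4471 in TKO ESC and changed by -0.79 ± 0.39 (adjusted p = 0.137). The same array was lowest. The mean log2 intensity of the 34 genes was 11.66, 11.66, 11.96, 11.92 and 9.99 in TKO EB against 11.75, 11.67 and 11.65 in TKO ESC, and it was 9.73, 10.81 and 10.78 in WT EB. Lines 7-4-1 and Dutch thus lay above their own ESC, by 0.21 and 0.25, and Ta1-12 lay 1.66 below it. Without line Ta1-12 the median change of the list was 0.05 and no member was called, while 1 member rose when TKO EB Ta1-12 alone was left out. For the 41 E2F targets the corresponding means were 11.57, 11.67, 11.73, 11.76 and 10.51 in TKO EB against 11.85, 11.78 and 11.69 in TKO ESC, and their median change without line Ta1-12 was -0.06. Rbl1 intensity was 1096 on TKO EB Ta1-12 and 377 on TKO EB Dutch, where these genes were not low, and the part of Rbl1 in the result was not tested.

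Of 7 CDK inhibitors 6 rose (Cdkn1a, Cdkn1b, Cdkn1c, Cdkn2b, Cdkn2c and Cdkn2d), with a median of 2.16. Cdkn1a, the p21 inhibitor, had intensities of 11332, 8683, 6625, 7942 and 10473 in TKO EB against 2728, 1941 and 1460 in TKO ESC. Its lowest TKO EB value was more than 2-fold above its highest TKO ESC value, and it rose by 2.16 ± 0.21 (limma, adjusted p = 4.33e-05). Cdkn1c, the imprinted p57 inhibitor, had 17030, 10795, 17034, 3671 and 6996 in TKO EB against 434, 301 and 773 in TKO ESC and rose by 4.36 ± 0.57 (adjusted p = 0.000201). The order of lines differed between both inhibitors, with 7-4-1 lowest for Cdkn1a and among the highest for Cdkn1c. The list had 6 calls with cell line as a block, without line Ta1-12 and without line Dutch, and 6 or 7 when 1 array was left out. In the list of 9 G1 cyclins and kinases, Ccnd2, Ccne2 and Cdk4 rose and Ccne1 fell. Ccnd2, cyclin D2, had 3355, 2531, 1180, 1385 and 12194 in TKO EB against 157, 239 and 321 in TKO ESC and rose by 3.61 ± 0.62 (adjusted p = 0.00104). Ta1-12 was far above the other TKO EB, at the level of WT EB (10229 to 12983). Of these rises 1 was left with cell line as a block, without line Ta1-12, or without 1 array when that was TKO EB 2-55-2, TKO EB 7-4-1 or any of the TKO ESC. Of 10 E2F and DP factors, E2f6 and E2f1 rose and E2f4 fell. Neither share is above that of all genes (20.8% higher, 14.9% lower). E2f4, the main repressor partner of the pocket proteins Rbl1 and Rbl2, had 427, 477, 404, 552 and 366 in TKO EB against 1136, 1110 and 1264 in TKO ESC and changed by -1.41 ± 0.17 (adjusted p = 0.000114). There was no overlap and little spread within either group. E2f6, a repressor that acts without pocket proteins, rose by 1.02 ± 0.21 (adjusted p = 0.00345). The call of E2f1 was lost with cell line as a block and without line Ta1-12. The 2 rises became 1 after quantile normalization and without 1 array, unless that was TKO EB Dutch or TKO EB Ta1-12. None of 8 genes for pocket proteins and the MuvB core complex was called, and their median change was -0.03.

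Of 18 genes of quiescence and growth arrest 12 rose (Gas1, Ndn, Ccng1, Ccng2, Btg1, Gas6, Sesn3, Btg2, Foxo3, Tob1, Cited2 and Sesn1) and Klf9 fell, with a median of 1.27, and no fall was left without line Ta1-12. Gas1, a membrane protein named for growth arrest, had intensities of 7982, 7263, 9215, 1878 and 6023 in TKO EB against 97.8, 134 and 114 in TKO ESC. Dutch was 3-fold or more below the other TKO EB lines and still far above TKO ESC, and the change was 5.64 ± 0.48 (limma, adjusted p = 1.45e-05). Ndn, an imprinted growth suppressor, rose by 2.60 ± 0.25 (adjusted p = 3.31e-05). Of 18 genes of the p53 response 7 rose (Cdkn1a, Fas, Ccng1, Btg2, Phlda3, Sesn1 and Perp), with a median of 0.22, and 3 of those are also in the quiescence list. The death receptor gene Fas had 341, 776, 505, 318 and 288 in TKO EB against 25.2, 28.2 and 47.7 in TKO ESC and rose by 3.5 ± 0.42 (adjusted p = 0.000125), while Mdm2, a standard p53 target, had a change of 0.39 and no call. The count was 4 with cell line as a block, where 1 gene fell, and 4 without line Ta1-12, without line Dutch, without TKO ESC Dutch or without TKO ESC Ta1-12. Of 15 apoptosis genes 7 rose and 2 fell, with a median of 0.06. The share that fell is near that of all genes (14.9%). Casp8, the caspase downstream of death receptors, rose by 2.60 ± 0.38 (adjusted p = 0.000429), and Bid, which links it to mitochondria, changed by -1.64 ± 0.32 (adjusted p = 0.00213). The counts were 4 higher and 1 lower with cell line as a block and likewise without line Ta1-12, and 4 higher without TKO ESC 7-4-1 or TKO ESC Dutch.

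**Figure D2:**
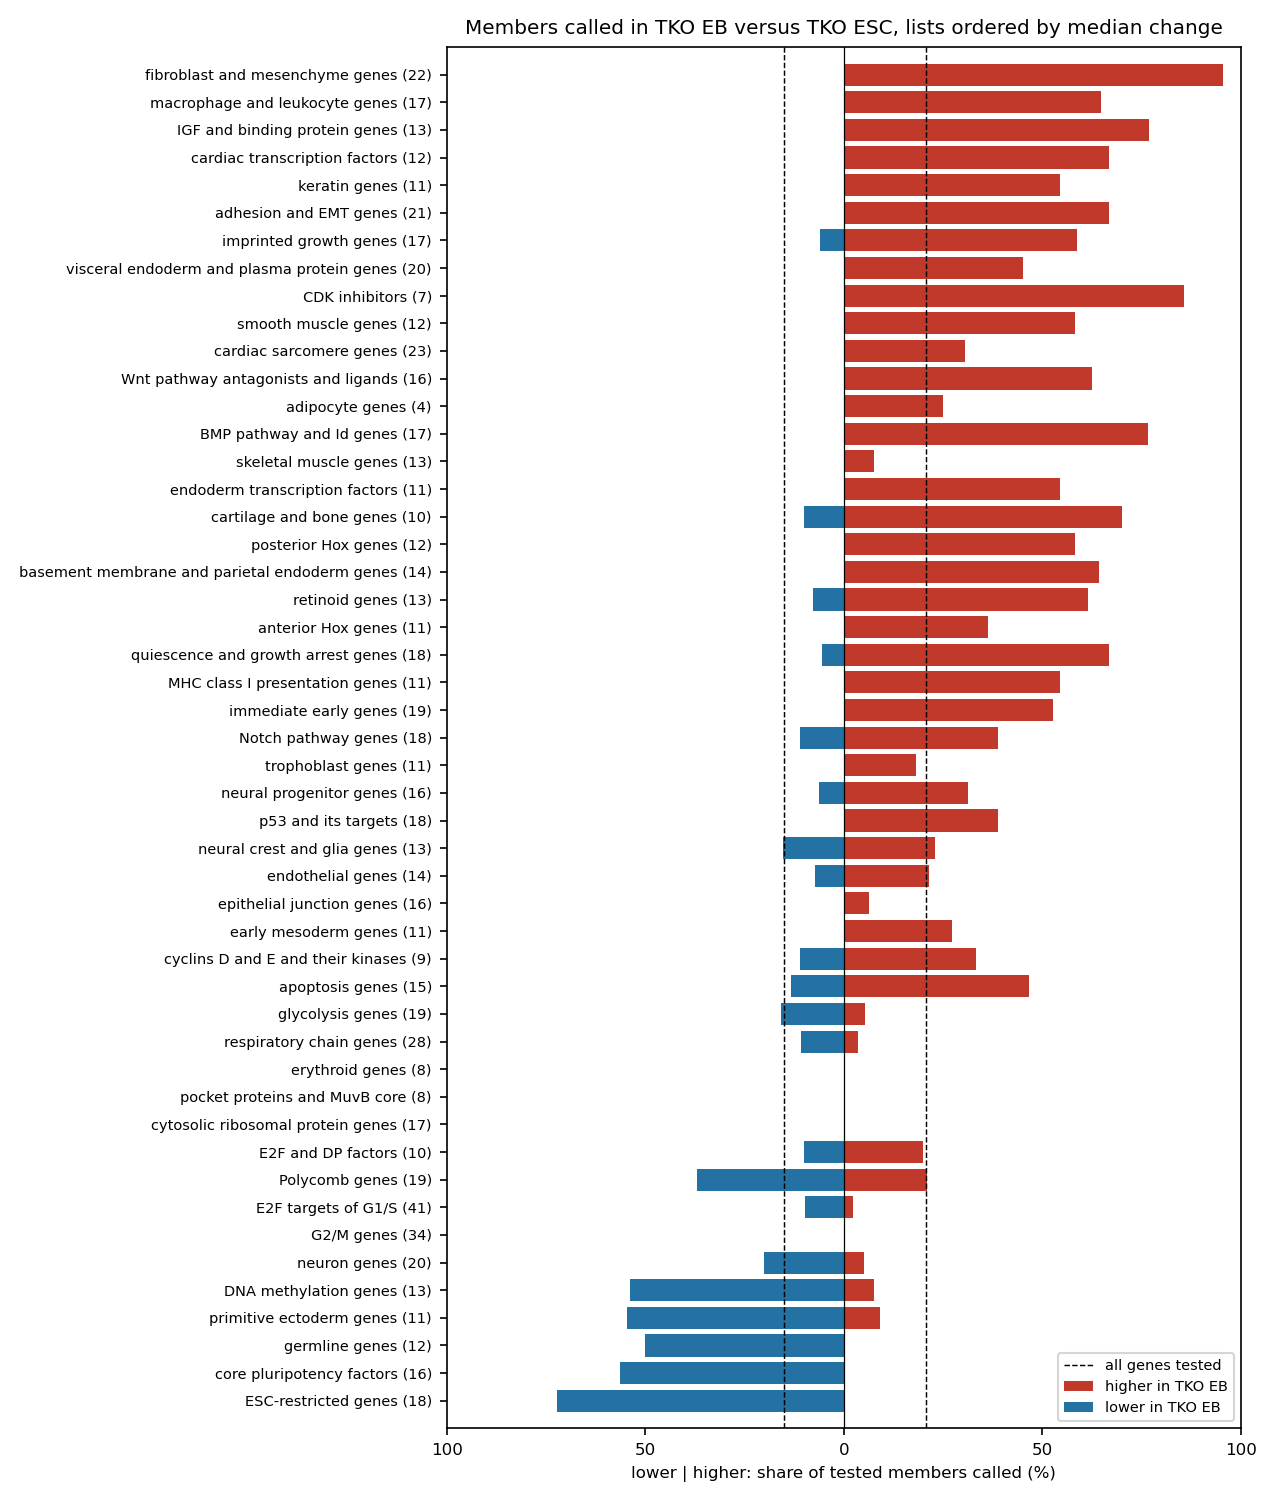
Share of the tested members of each of 49 gene lists (number tested in brackets) that was called higher (red, to the right) or lower (blue, to the left) in TKO EB versus TKO ESC, in percent, with lists ordered by median change. The dashed lines mark the shares of all genes tested, 20.8% higher and 14.9% lower. Of the fibroblast list 21 of 22 members were higher, and of the G2/M list 0 of 34 were called. The lists and their members were chosen with earlier results of these data known.

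Almost all of the listed mesenchymal genes rose, in a list chosen with earlier results of these data known. Of 22 fibroblast and mesenchyme genes 21 rose, with a median of 4.59, and the remaining member, Thy1, had a change of 0.38. The mean log2 intensity of the list was 12.11, 11.44, 12.42, 10.37 and 12.24 in TKO EB against 6.89, 7.12 and 7.08 in TKO ESC. Every TKO EB line was thus at least 3 units above every TKO ESC line, Dutch by the least. The count was 20 with cell line as a block, 19 without line Ta1-12 and 20 or 21 when 1 array was left out. Of 12 smooth muscle genes 7 rose (Myl9, Actg2, Acta2, Mylk, Tpm2, Tpm1 and Tagln), with a median of 2.13. Myl9, a myosin light chain, had intensities of 6017, 1972, 3903, 3142 and 3464 in TKO EB against 77.9, 186 and 242 in TKO ESC and rose by 4.51 ± 0.49 (limma, adjusted p = 6.92e-05). Actg2, the actin of enteric smooth muscle, had 2797, 624, 933, 690 and 2007 in TKO EB against 45.6, 39.9 and 66.1 in TKO ESC and rose by 4.58 ± 0.52 (adjusted p = 9.36e-05). For both genes 2-55-2 was the highest line and no TKO EB array overlapped TKO ESC. Among the members not called were Myh11, Cnn1, Smtn and Lmod1, with changes of 0.57 to 0.81. Of 21 genes of adhesion and epithelial to mesenchymal transition 14 rose, among them Cdh11 and Snai2, a repressor of epithelial genes (4.92 ± 0.45, adjusted p = 2.5e-05), with a median of 2.33. Epithelial cadherin, Cdh1, had a change of -0.58 and no call. Of 10 cartilage and bone genes 7 rose and Acan, the proteoglycan of cartilage, fell. The chondrogenic factors Sox6 and Sox9 rose by at least 3.08 ± 0.50 (adjusted p = 0.000758) and by at least 4.67 ± 0.78 (adjusted p = 0.00088), and Acan was not called lower without line Ta1-12. Of 4 adipocyte genes tested, the lipase Lpl rose (3.18 ± 0.55, adjusted p = 0.00108) and Cebpa, with a change of 0.99 ± 0.41, did not pass (adjusted p = 0.0751). Of 11 early mesoderm genes 3 rose (Pdgfra, Kdr and Snai1), and the list median was 0.10. The share that rose is not far from that of all genes (20.8%). Pdgfra, a receptor of mesenchymal cells, had 2383, 2036, 4886, 370 and 6517 in TKO EB against 201, 25.3 and 43.9 in TKO ESC and rose by 5.10 ± 0.83 (adjusted p = 0.000762). TKO EB Dutch was lowest and TKO ESC 7-4-1 highest of its group. Mixl1, Eomes and Mesp1, transient genes of gastrulation, had changes of -0.34 to 0.10 and no call.

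Heart regulators were mostly higher in TKO EB, and contractile genes differed between lines. Of 12 cardiac transcription factors 8 rose (Hand2, Tbx20, Isl1, Gata6, Myocd, Mef2c, Tbx2 and Gata4), with a median of 2.54. Hand2, a factor of heart and limb mesenchyme, had intensities of 1516, 2228, 3506, 612 and 1958 in TKO EB against 62.6, 58.4 and 66.9 in TKO ESC. All TKO EB lines were above all TKO ESC lines, and it rose by 4.76 ± 0.44 (limma, adjusted p = 2.83e-05). Tbx20, a T-box factor of the heart, rose by 3.66 ± 0.42 (adjusted p = 9.99e-05). Other probe sets gave 0.53 to 2.12 for Tbx20 and 0.68 to 1.47 for Hand2. Nkx2-5, a defining factor of cardiomyocytes, had a change of 0.28 and no call. Of 23 cardiac sarcomere genes 7 rose (Tnni1, Tnnt2, Actc1, Tnnc1, Ankrd1, Myl3 and Myh7), with a median of 1.92, while of all genes 20.8% rose. Cardiac troponin T, Tnnt2, had 12140, 271, 1395, 194 and 1976 in TKO EB against 18.4, 13 and 6.1 in TKO ESC. Line 2-55-2 was at least 6-fold above any other TKO EB line, 14-14-4 and Dutch were lowest, and the rise was at least 5.13 ± 1.05 (adjusted p = 0.00285). Tnni1, slow skeletal troponin I, had 11795, 649, 2585, 288 and 1179 in TKO EB against 53.3, 41.1 and 27.8 in TKO ESC and rose by 5.15 ± 1.00 (adjusted p = 0.00218). Line 2-55-2 was again the highest. The mean of the 23 genes was 10.75, 6.52, 8.15, 7.49 and 8.92 in TKO EB against 6.17, 6.41 and 6.18 in TKO ESC, so that 14-14-4 was nearly at the ESC level. Without TKO EB 14-14-4 the count was 11. Of 13 skeletal muscle genes 1 rose, the troponin gene Tnnt3, by at least 3.01 ± 0.87 (adjusted p = 0.0176), and it was not called without line Ta1-12 or without any 1 TKO ESC array, while 3 genes were called without TKO EB 14-14-4 or without TKO EB Dutch. Acta1, skeletal actin, had 12057, 202, 2260, 408 and 1220 in TKO EB against 97.9, 205 and 296 in TKO ESC. The groups overlapped, and its change of 2.75 ± 1.14 did not pass (adjusted p = 0.0754). These 13 genes averaged 10.01 on the array TKO EB 2-55-2 and between 5.77 and 8.02 on the remaining TKO EB arrays, against 5.74 to 5.98 in TKO ESC.

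**Figure D3:**
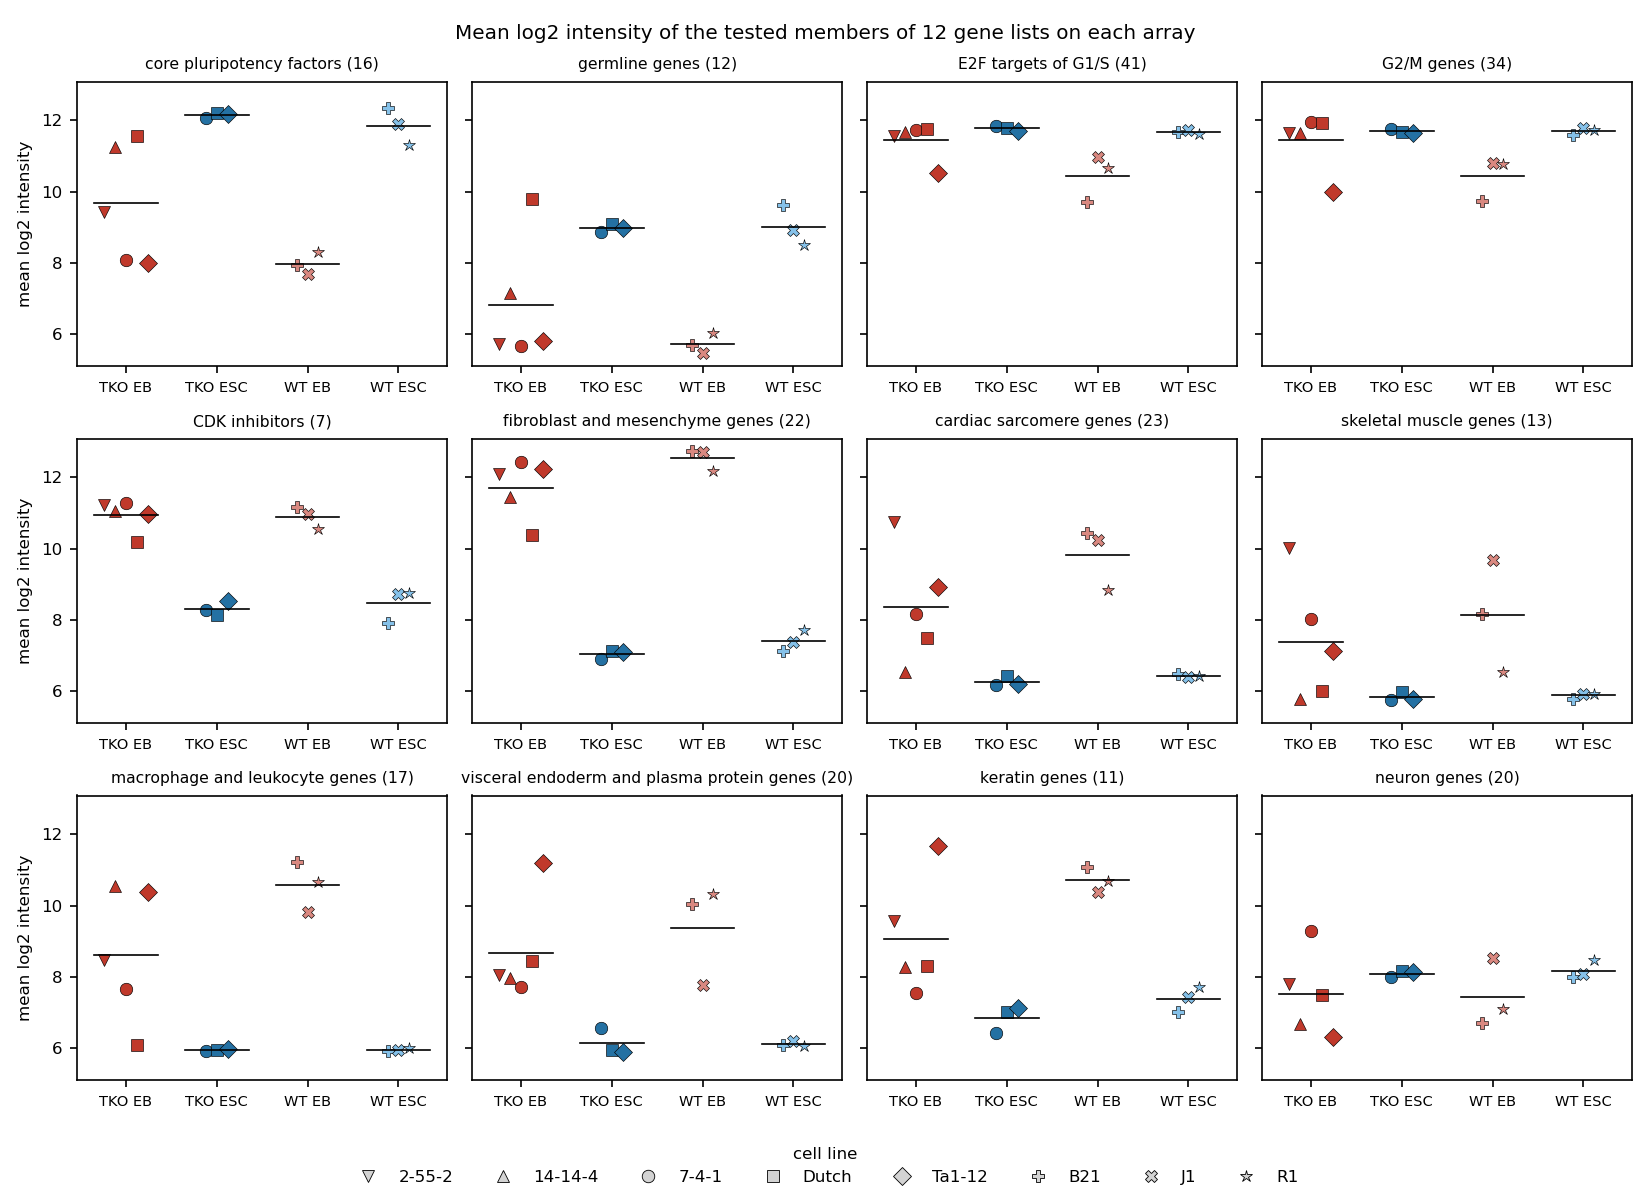
Mean log2 intensity (vertical axis) of the tested members of 12 gene lists on each of the 14 arrays, by group from left to right (TKO EB, TKO ESC, WT EB, WT ESC), with 1 marker shape per cell line and a bar at the group mean. TKO EB spread widely for pluripotency, germline, muscle, macrophage and keratin genes, while TKO ESC stayed together. TKO EB Ta1-12 is the only TKO EB line with low E2F targets (10.51) and G2/M genes (9.99).

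Of 20 genes of visceral endoderm and plasma proteins 9 rose (Ttr, Afp, Rbp4, Apom, Dab2, Apoa1, Apob, Fgb and Hnf4a), with a median of 2.18. Alpha-fetoprotein, Afp, had intensities of 7454, 1291, 3927, 9302 and 17546 in TKO EB against 10.2, 18.1 and 6.8 in TKO ESC. It was under the floor on every TKO ESC array, while Ta1-12 and Dutch were the highest TKO EB lines, and it rose by at least 7.48 ± 0.63 (limma, adjusted p = 1.3e-05). Its other probe sets gave -0.18 to 7.46. The list averaged 11.19 on the array TKO EB Ta1-12 and between 7.71 and 8.43 on the remaining TKO EB arrays, against 5.88 to 6.56 in TKO ESC. The count was 5 without line Ta1-12. Of 11 endoderm transcription factors 6 rose, with a median of 1.69. Foxa1, a pioneer factor of endoderm, had 2371, 304, 1198, 1044 and 7021 in TKO EB against 16.8, 25.3 and 29.4 in TKO ESC and rose by at least 5.50 ± 0.72 (adjusted p = 0.000205). Gata6, which drives primitive endoderm, had 1652, 2379, 3036, 350 and 4006 in TKO EB against 187, 47.4 and 37.5 in TKO ESC and rose by 4.66 ± 0.73 (adjusted p = 0.000633). TKO ESC 7-4-1 was the highest of its group for Gata6, and TKO EB Dutch was the lowest of the TKO EB. Other probe sets of Gata6 gave 0.08 to 4.19. The count of 6 was 3 with cell line as a block, without line Ta1-12, without TKO ESC Dutch or without TKO ESC Ta1-12. Of 14 genes of basement membrane and parietal endoderm 9 rose, with a median of 1.55. Plat, the tissue plasminogen activator, rose by 4.93 ± 0.57 (adjusted p = 0.000102) and the collagen chaperone Serpinh1 by 3.30 ± 0.43 (adjusted p = 0.000203). The other probe set of Plat changed by only 0.07.

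Of 11 keratin genes 6 rose (Krt19, Krt7, Krt8, Krt18, Krt14 and Krt15), with a median of 2.45. Krt19, a keratin of simple epithelia, had intensities of 5902, 3574, 1682, 5716 and 16771 in TKO EB against 92.8, 914 and 445 in TKO ESC and rose by 3.92 ± 0.84 (limma, adjusted p = 0.00375). Ta1-12 was highest and 7-4-1 lowest among TKO EB. Krt7 rose by 3.40 ± 0.87 (adjusted p = 0.00953), a call lost without line Dutch (adjusted p = 0.0581), and Krt8 by 2.80 ± 0.76 (adjusted p = 0.0124). The count was 2 without TKO ESC 7-4-1, in which Krt19 was lowest. Of 16 epithelial junction genes 1 rose, the desmosome gene Dsp (2.46 ± 0.73, adjusted p = 0.0193), which was not called without line Ta1-12. The count was 4 without TKO EB 7-4-1 and 0 without TKO ESC 7-4-1. The claudin Cldn3 had a change of 1.47 ± 0.57 (adjusted p = 0.0623). Of 11 trophoblast genes Plac1 and Krt8 rose, a share below that of all genes (20.8%), and 1 was left without TKO ESC 7-4-1. Plac1, known from placenta, had 224, 341, 190, 666 and 146 in TKO EB against 47.5, 20.5 and 36.2 in TKO ESC, with Dutch highest, and rose by 2.82 ± 0.39 (adjusted p = 0.000286).

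Neural genes divided between the lines. Of 16 neural progenitor genes 5 rose (Zic1, Irx3, Lhx2, Fabp7 and Nes) and Zic5 fell, with a median of 0.34. Among all genes 20.8% rose and 14.9% fell. Zic1, a zinc finger factor of the neural plate, had intensities of 1279, 366, 6399, 356 and 473 in TKO EB against 24, 21 and 9 in TKO ESC. Line 7-4-1 was far above the other lines, all of which were above the floor, and the rise was at least 4.77 ± 0.77 (limma, adjusted p = 0.000723). Irx3, a factor that patterns the neural tube, rose by 3.18 ± 0.55 (adjusted p = 0.00108), also highest in 7-4-1. The fall of Zic5 was lost with cell line as a block and without either line Ta1-12 or line Dutch. Of 20 neuron genes Isl1 rose and 4 fell (Nefh, Ina, Neurod1 and Stmn2), with a median of -0.41. The share that fell is not far from that of all genes (14.9%). Isl1, used by motor neurons and by heart progenitors, rose by at least 4.22 ± 0.53 (adjusted p = 0.000171). Nefh, a neurofilament, had 61.3, 54.5, 35.8, 204 and 64.3 in TKO EB against 930, 1049 and 834 in TKO ESC and changed by -3.76 ± 0.57 (adjusted p = 0.000539), so that every TKO EB array lay below every TKO ESC array. The 20 genes averaged 9.29 on the array TKO EB 7-4-1 and between 6.32 and 7.80 on the remaining TKO EB arrays, against 8.0 to 8.15 in TKO ESC. Without TKO EB 7-4-1 the falls numbered 8, and 2 were left with cell line as a block or without line Ta1-12. Of 13 neural crest and glia genes 3 rose, including Snai2 and Ets1 (3.88 ± 0.66, adjusted p = 0.000991), and 2 fell, S100b and Foxd3, of which 1 was left with cell line as a block. Both counts are near the shares of all genes (20.8% higher, 14.9% lower).

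The Hox genes, which record position along the body axis, were also highest in line 7-4-1 in the genes described here. Of 11 anterior Hox genes 4 rose (Hoxb2, Hoxb4, Hoxb3 and Hoxa3), with a median of 1.34. Hoxb2 had intensities of 1451, 316, 3561, 146 and 620 in TKO EB against 15.5, 15.3 and 16.1 in TKO ESC and rose by at least 4.42 ± 0.76 (limma, adjusted p = 0.00107). Hoxb4 had 549, 248, 1507, 195 and 398 in TKO EB against 110, 119 and 40 in TKO ESC and rose by 2.44 ± 0.56 (adjusted p = 0.00512). Line 7-4-1 was highest for both and Dutch lowest, and the mean change from ESC to EB of the 11 genes was 4.04 in 7-4-1, 0.36 in Dutch and 1.30 in Ta1-12. Of 12 posterior Hox genes 7 rose, with a median of 1.58. Hoxd8 had 186, 277, 568, 64.2 and 504 in TKO EB against 34.7, 19.3 and 22.8 in TKO ESC and rose by 2.92 ± 0.65 (adjusted p = 0.0046). Hoxa9 had 88.8, 127, 140, 65.2 and 62.4 in TKO EB against 37.7, 59.8 and 43.7 in TKO ESC. Its change of 0.99 ± 0.28 (adjusted p = 0.0159) rests on TKO EB values within 3-fold of the floor of 32 in Ta1-12 and Dutch, and it was not called with cell line as a block (adjusted p = 0.138). The count of 7 was 2 with cell line as a block, 3 without line Ta1-12, 12 without TKO EB Dutch, 4 without TKO EB 14-14-4, 3 without TKO EB 7-4-1 and 1 or 2 without any 1 of the TKO ESC arrays.

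Genes of macrophages stood apart among the blood lineages. Of 17 macrophage and leukocyte genes 11 rose (Csf1r, Fcgr3, Cd14, Lyz1, Lyz2, Tyrobp, C1qb, C1qc, Fcer1g, C1qa and Ptprc), with a median of 3.12. Csf1r, the receptor that macrophages need to survive, had intensities of 436, 2946, 214, 452 and 3118 in TKO EB against 56.4, 30.8 and 52.9 in TKO ESC. Lines 14-14-4 and Ta1-12 were far above the other lines, and the change was 4.18 ± 0.80 (limma, adjusted p = 0.00204). Fcgr3, an Fc receptor, had 335, 1812, 236, 64.4 and 1339 in TKO EB against 18.7, 21.3 and 18.1 in TKO ESC and rose by at least 3.70 ± 0.84 (adjusted p = 0.00517). The mean of the 17 genes was 10.55 in 14-14-4 and 10.37 in Ta1-12, 8.47 in 2-55-2, 7.65 in 7-4-1 and 6.08 in Dutch, against 5.92 to 5.97 in TKO ESC. The mean of TKO EB Dutch was thus near the ESC level, though Csf1r was 452 on that array against 30.8 on TKO ESC Dutch. The count was 2 with cell line as a block, which leaves 14-14-4 and 2-55-2 without an ESC partner, 4 without line Ta1-12, and 6 or 7 without any 1 of the TKO ESC arrays. None of 8 erythroid genes was called. The embryonic globin Hbb-bh1 had 139, 410, 94.4, 23.7 and 5.9 in TKO EB against 6.8, 9.9 and 7.2 in TKO ESC, with Dutch and Ta1-12 under the floor, and its change of 1.47 ± 0.79 did not pass (adjusted p = 0.165). The erythroid factor Gata1 had a change of -0.39 ± 0.21 (adjusted p = 0.161). Of 14 endothelial genes 3 rose (Kdr, Flt1 and Sox17) and Eng fell, with a median of 0.20, and the share that rose is near that of all genes (20.8%). The vascular growth factor receptors Kdr and Flt1 rose by 2.31 ± 0.51 (adjusted p = 0.00451) and by at least 3.47 ± 0.88 (adjusted p = 0.00894), while Cdh5, the cadherin that defines endothelium, had a change of 2.55 and no call. Flt1 was not called without line Ta1-12 (adjusted p = 0.0554). The fall of Eng was lost with cell line as a block, without line Ta1-12 and without line Dutch, and 5 genes rose without TKO EB 14-14-4.

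Of 11 genes of MHC class I presentation 6 rose (B2m, Tap1, Calr, Pdia3, H2-K1 and H2-D1), with a median of 1.02. B2m, the light chain of MHC class I, had intensities of 6510, 7575, 6150, 4127 and 11781 in TKO EB against 904, 1122 and 850 in TKO ESC and rose by 2.84 ± 0.32 (limma, adjusted p = 8e-05). The groups were far apart, with Ta1-12 highest and Dutch lowest. Tap1, the peptide transporter, rose by 2.26 ± 0.42 (adjusted p = 0.00167). The count was also 6 with cell line as a block, without line Ta1-12 and without line Dutch. Of 19 immediate early genes 10 rose, with a median of 0.97. Jun had 4150, 5143, 4428, 1392 and 4528 in TKO EB against 122, 143 and 209 in TKO ESC and rose by 4.54 ± 0.56 (adjusted p = 0.000145), and its partner Fos rose by 3.64 ± 0.60 (adjusted p = 0.000816). Myc, which maintains growth in ESC, had a change of -0.54 and no call. Without line Ta1-12 the count was 5.

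Most genes of secreted signals and their inhibitors were higher in TKO EB. Of 13 genes for insulin-like growth factors, their receptors and binding proteins 10 rose, with a median of 3.09. Igfbp5, abundant in mesenchyme, had intensities of 14363, 2524, 17448, 2196 and 8918 in TKO EB against 24.5, 19.4 and 39.2 in TKO ESC. Lines 14-14-4 and Dutch were at least 3-fold below the other TKO EB lines, and it rose by 7.59 ± 0.60 (limma, adjusted p = 1.01e-05). The count was 6 without line Ta1-12. Of 17 imprinted growth genes 10 rose (Dlk1, Plagl1, Ndn, Igf2, Mest, Cdkn1c, Gnas, Peg3, Nnat and Zim1) and Phlda2 fell, with a median of 2.27. Meg3, the noncoding RNA at the locus of Dlk1, had a change of -2.42 and no call. Phlda2 was not called without line Ta1-12. Of 16 Wnt antagonists and ligands 10 rose and none fell, with a median of 1.91. The antagonist Dkk2 had 274, 418, 1878, 184 and 1028 in TKO EB against 7.1, 5.8 and 2.2 in TKO ESC and rose by at least 4.04 ± 0.59 (adjusted p = 0.000407). The soluble antagonist Frzb had 219, 468, 297, 544 and 1094 in TKO EB against 7.6, 9.5 and 11.5 in TKO ESC and rose by at least 3.81 ± 0.61 (adjusted p = 0.000721). Neither overlapped between the groups. The count was 6 with cell line as a block, without line Ta1-12, and without TKO ESC Ta1-12. Of 17 genes of the BMP pathway, including the Id genes that it induces, 13 rose, with a median of 1.75. The ligand Bmp5 rose by at least 2.86 ± 0.38 (adjusted p = 0.000224), and Id3, an inhibitor of differentiation factors, had 5726, 4064, 5002, 2370 and 2882 in TKO EB against 362, 555 and 680 in TKO ESC and rose by 2.88 ± 0.39 (adjusted p = 0.000269). Id1, Id2, Id3 and Id4 were all called. Without line Ta1-12 there were 8 rises. Of 18 Notch pathway genes 7 rose (Dlk1, Notch1, Notch2, Notch3, Hes1, Hey1 and Hey2) and Dll3 and Mfng fell, with a median of 0.91. The share that fell is below that of all genes (14.9%). The receptor Notch2 rose by 1.69 ± 0.33 (adjusted p = 0.00233), while its other probe set gave 0.0. There were 4 rises without line Ta1-12, and no fall was left with cell line as a block, without line Dutch, or without 1 array when that was TKO EB 2-55-2, TKO EB 14-14-4 or any of the TKO ESC. Of 13 genes of retinoid signalling 8 rose and Rara fell, with a median of 1.5. The receptor Rarb, itself induced by retinoic acid, had 1053, 460, 1637, 388 and 476 in TKO EB against 12.2, 21.7 and 15.8 in TKO ESC and rose by at least 4.41 ± 0.44 (adjusted p = 4.32e-05). Dhrs3, which reduces retinal, rose by at least 4.61 ± 0.67 (adjusted p = 0.000383). The rises numbered 5 without line Ta1-12, without TKO ESC Dutch and without TKO ESC Ta1-12, and the fall of Rara was lost with cell line as a block.

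Few metabolic genes were called. Of 19 glycolysis genes Tpi1 rose and 3 fell (Pdk1, Hk2 and Pkm), with a median of 0.04. The share that fell is near that of all genes (14.9%). Tpi1, an enzyme of the glycolytic chain, changed by 0.64 ± 0.15 (limma, adjusted p = 0.00533) and Pdk1, which limits entry of pyruvate into mitochondria, by -0.82 ± 0.26 (adjusted p = 0.0274). Pdk1 was not called with cell line as a block (adjusted p = 0.0662) or without line Ta1-12, where no fall was left, and 3 genes rose without line Dutch. Of 28 respiratory chain genes Cox6a1 rose (0.21 ± 0.07) and 3 fell, the most significant being Atp5b (-0.19 ± 0.06), with a median of 0.04. None of these 4 calls was left with cell line as a block (adjusted p = 0.22 for Cox6a1 and 0.0795 for Atp5b) or without line Ta1-12. Changes this small also moved with the scaling. Cox6a1 was not called with median centring (0.09, adjusted p = 0.54), and 5 respiratory chain genes fell after quantile normalization. None of 17 cytosolic ribosomal protein genes was called, and their changes lay between -0.49 and 0.43, with Rplp2 at -0.09 ± 0.03 (adjusted p = 0.0577) and Rpl8 at -0.11 ± 0.04 (adjusted p = 0.0712). Rplp2 was called lower with median centring (-0.22, adjusted p = 0.0397) and with log2(intensity + 32) (-0.09, adjusted p = 0.0432).

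The 10 genes of widest range over the 5 TKO EB arrays are described without a test of that range. Cym, the stomach protease chymosin, had intensities of 216, 178, 48.7, 37.6 and 19757 in TKO EB against 13.9, 34.7 and 25.8 in TKO ESC. Lgals4, a galectin of the gut epithelium, had 51.9, 53.3, 29.3, 41.3 and 8157 in TKO EB against 38.1, 42.6 and 47.1 in TKO ESC. Sptssb, a subunit of the enzyme that starts sphingolipid synthesis, had 142, 21.2, 98.1, 24.9 and 7900 in TKO EB against 12.4, 9.2 and 9.4 in TKO ESC. All of them were far higher in Ta1-12 than in the other 4 lines. Myogenin, Myog, the factor that commits myoblasts to fuse, had 8799, 13.5, 2316, 38.7 and 298 in TKO EB against 13, 20 and 17 in TKO ESC. Myh3, embryonic skeletal myosin, had 9574, 9.8, 2253, 183 and 529 in TKO EB against 350, 498 and 170 in TKO ESC. Myl1, a light chain of fast skeletal muscle, had 11667, 33.6, 2770, 67 and 1177 in TKO EB against 23.3, 28.3 and 20.4 in TKO ESC. These muscle genes were highest in 2-55-2 and next highest in 7-4-1, and Myog and Myh3 were under the floor in 14-14-4. Cardiac actin, Actc1, had 19932, 71.9, 10558, 3416 and 6226 in TKO EB against 28.9, 32.8 and 32.4 in TKO ESC, and it was the most even of this set outside 14-14-4, with a change of 6.61 ± 1.40 (limma, adjusted p = 0.00353). Krt15, a keratin of basal epithelial cells, had 8325, 290, 210, 19 and 13629 in TKO EB against 11.9, 4.5 and 3.7 in TKO ESC, high in Ta1-12 and 2-55-2. Its change of 4.53 ± 1.53 (adjusted p = 0.0351) was not called with cell line as a block (adjusted p = 0.0971) or without line Ta1-12 (adjusted p = 0.126). Tdgf1, the co-receptor of Nodal, had 2434, 6962, 149, 9355 and 37.7 in TKO EB against 10478, 14242 and 12159 in TKO ESC. It followed the order of Nanog, and its change of -3.64 ± 1.49 did not pass (adjusted p = 0.0743), but passed with cell line as a block (adjusted p = 0.0382).

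**Figure D4:**
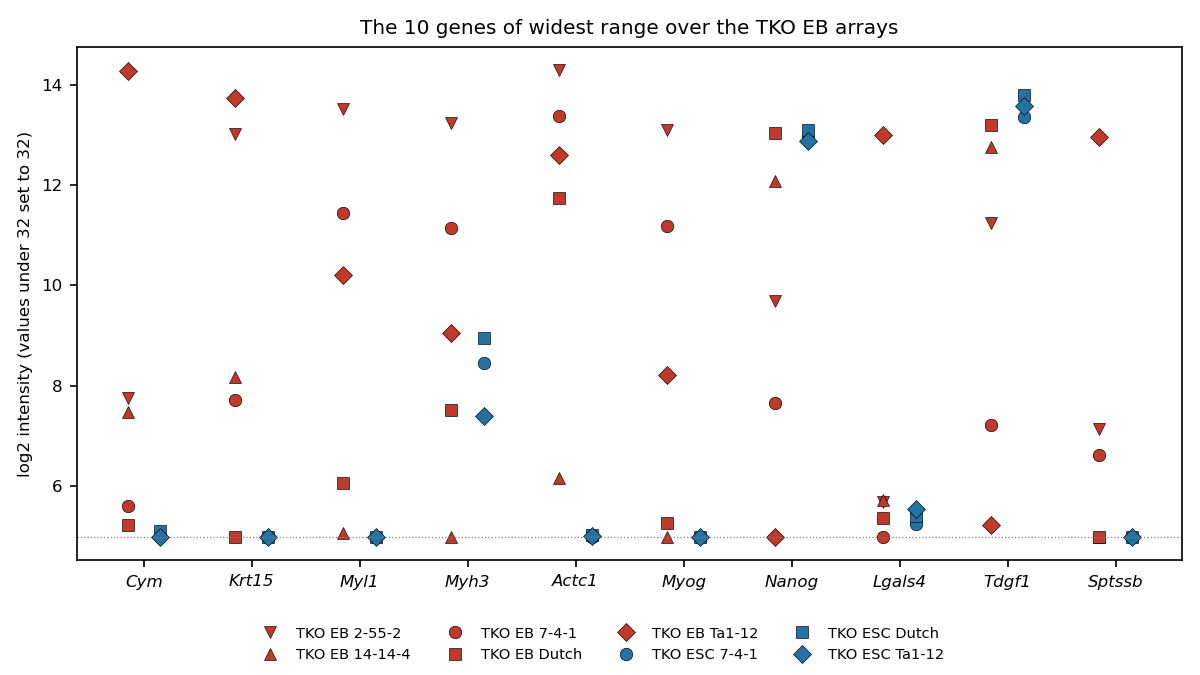
Log2 intensity (vertical axis, values under 32 set to 32) of the 10 genes with the widest range over the 5 TKO EB arrays (red), beside the 3 TKO ESC arrays (blue), with 1 marker shape per cell line. Cym, Lgals4 and Sptssb are high only in TKO EB Ta1-12 among the 5 lines, the muscle genes Myl1, Myh3, Actc1 and Myog are highest in 2-55-2, and Nanog and Tdgf1 are highest in Dutch.

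The change on differentiation was then compared between TKO and WT cells, with the difference itself as the contrast. No gene passed the adjusted threshold (0.0%), and 522 genes (3.63%) had an unadjusted p under 0.05 in limma, with a smallest adjusted p of 0.511. Across the 14365 genes the TKO and the WT change correlated at 0.915 (Pearson's r, a description over genes, which are not independent replicates), and 5080 of the 5132 genes called in TKO had the same sign in WT. The 12 genes with the smallest p are described, though none passed. Timp1, an inhibitor of matrix proteases, had intensities of 801, 1152, 1202, 1191 and 854 in TKO EB against 1287, 1463 and 1523 in TKO ESC, and 3548, 2326 and 2730 in WT EB against 1331, 1022 and 844 in WT ESC. It was lower in TKO EB than in TKO ESC without passing and higher in WT EB than in WT ESC, with a difference of -1.90 ± 0.31 (adjusted p = 0.511). Lbr, the lamin B receptor of the nuclear envelope, had 7583, 8352, 8074, 7648 and 4165 in TKO EB against 9830, 8345 and 6989 in TKO ESC, and 2965, 3958 and 3892 in WT EB against 9044, 8808 and 8348 in WT ESC. TKO EB Ta1-12 lay just above the WT EB values and the other 4 TKO EB lines near ESC, and the difference was 1.03 ± 0.31 (adjusted p = 0.975). Fgf5, a growth factor of primitive ectoderm, had 185, 113, 23.4, 80.9 and 13.4 in TKO EB against 6.8, 30.5 and 20.7 in TKO ESC, and 13.2, 24.4 and 36 in WT EB against 54.5, 286 and 493 in WT ESC. It was under the floor on every TKO ESC array and spread widely over TKO EB, and the difference was 3.71 ± 1.01 (adjusted p = 0.975). Differences above 0 were also seen for the copine Cpne2 (1.61 ± 0.34), coagulation factor F5 (1.17 ± 0.33), the vesicle GTPase Rab3b (1.36 ± 0.39) and the thiamine transporter Slc19a3 (1.25 ± 0.38). Differences below 0 were seen for the membrane protein Tmem208 (-1.22 ± 0.24), Mycbpap (-1.61 ± 0.35), the sensor of viral RNA Ddx58 (-1.11 ± 0.25), the serpin Serpinb7 (-2.25 ± 0.53) and the chemokine Cxcl2 (-2.03 ± 0.48).

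Leaving out TKO EB Ta1-12 raised this count to 26 genes. Leaving out both arrays of line Ta1-12 raised it to 5, all with a lower change in TKO than in WT. Of the 26, 5 had a higher and 21 a lower change in TKO than in WT. The 5 with a higher change were Lbr, Tcfl5, Cenpf, Aunip and Sgo2a, and the last 3 act in mitosis. None of these 5 passed when both arrays of line Ta1-12 were left out. Lbr then had a difference of 1.22 ± 0.18 (adjusted p = 0.0224) and Cenpf, a kinetochore protein, of 1.93 ± 0.33 (adjusted p = 0.0475). Among the 21 were genes of stratified or barrier epithelium (Upk3a, Psca, Krt13, Col17a1, Dapl1), Cdh5 and Timp1. Cdh5, with a difference of -3.60 ± 0.53 (adjusted p = 0.0224) then, had -2.59 with all arrays. These genes, other than Lbr and Timp1, were singled out after their values were seen. Since 1 array turns this count, the comparison of TKO with WT depends on whether the array labelled TKO EB Ta1-12 is counted as TKO.

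**Figure D5:**
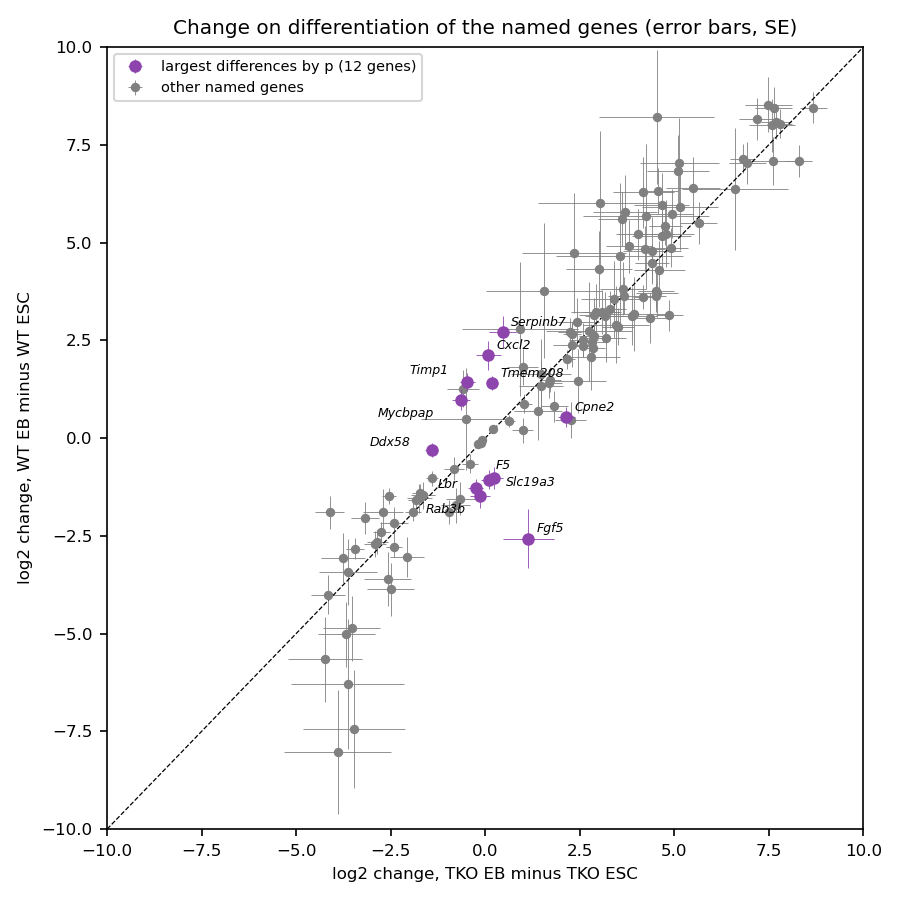
Log2 change of the 135 named genes in TKO (TKO EB minus TKO ESC, horizontal axis) and in WT cells (WT EB minus WT ESC, vertical axis), with standard errors from limma as bars and the line of equal change dashed. The 12 genes with the smallest p for the difference are in purple and labelled, and none passed after adjustment (smallest adjusted p 0.511).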

How the data were processed

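RNA of 14 Affymetrix arrays was measured, 5 of TKO EB and 3 each of TKO ESC, WT EB and WT ESC. The authors deposited 1 linear intensity per probe set (45101), from 0.596 to 25702. The sources used here do not give their summarization or scaling. The medians of the arrays spanned 0.374 in log2 units, so no further scaling was applied. The number of arrays limits the precision.

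Intensities under 32 were set to 32 (25.7 to 29.0% of an array's values) and log2 was taken. Gene symbols came from the platform annotation, with 34958 probe sets of 1 symbol, 932 of several and 9211 of none, and only those of 1 symbol were used. Of these, 34754 matched RefSeq. Each gene was represented by its brightest probe set, by the mean of the 14 arrays. For several named genes, other probe sets changed by far less or by about 0, and not all of these are printed. Genes above the 40th percentile on at least 3 arrays were tested (14365 of 18194). limma 3.58.1 in R 4.3.3 fitted 1 mean per group over all 14 arrays, with a trend in eBayes and Benjamini-Hochberg adjustment at 0.05, two-sided. The procedure was tested on simulated data. Groups are taken from the sample titles. The p-values rest on the spread between arrays within a group, pooled over all 14 arrays, and treat arrays of 1 line as independent. Each line has at most 1 array per stage, so spread between lines cannot be told apart from spread between cultures or hybridizations.

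Arrays of TKO EB and TKO ESC share lines 7-4-1, Dutch and Ta1-12, and those of WT EB and WT ESC share B21, J1 and R1, so cell line was also fitted as a block. Deviations of the paired arrays from their group means correlated at 0.066, 0.196 and 0.09 in TKO and at -0.046, -0.078 and -0.037 in WT. Lines 2-55-2 and 14-14-4 have no ESC array, so with line as a fixed block the change in TKO comes from lines 7-4-1, Dutch and Ta1-12 only.

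Counts over 49 gene lists (863 entries, 759 tested) are given without a set test. The members and lists were chosen with earlier results of these data known. Named genes are the 12 most significant rises and falls of at least 2-fold without overlap, the 2 most significant members of every list, called or not, the 6 smallest in each direction for the difference from WT, the 10 of widest range over TKO EB, and Rb1, Rbl1, Rbl2, Pou5f1, Nanog and Sox2, leaving out clone-like symbols, Xist and Y-linked genes. Other genes were named after their values were seen, to complete a list's calls or as its known members. Promoters came from RefSeq, GRCm38.p6.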

Additional observations from a re-analysis of the deposited data

Results flagged for a closer look

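In 21 of 175 sets of values tested over the 5 TKO EB arrays, 1 array lay far from the other 4. A rate of 1 in 20 holds for independent sets, but these share the same 5 arrays and some genes were named for their wide range. The 21 can therefore not be set against that rate. For Cyp11a1, Slc24a1, Gbx2, Ppef2 and Cxcl2 the other 4 arrays were all set to the floor, so any value above it stands apart. Piwil2 and Hpdl had 3 arrays under the floor. All values here are on the log2 scale.

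TKO EB Ta1-12 stood apart in both proliferation lists, with a mean of 10.51 for E2F targets of G1/S (next lowest 11.57) and of 9.99 for G2/M genes (next lowest 11.66), and was lowest for Plk1 (10.26) and Lbr (12.02). It was highest for the mean of visceral endoderm and plasma protein genes (11.19, next highest 8.43), for Tmem208 (11.31), for Ddx58 (9.39) and for Cxcl2 (5.42, the others at the floor of 5.0).

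TKO EB Dutch was lowest for the mean of the CDK inhibitors (10.19, next lowest 10.96), for the growth arrest gene Gas1 (10.88), for Jun (10.44), and for the genes Nrp1 (10.66), Plagl1 (13.31) and Serpinh1 (12.67). It was highest for Piwil2 (8.62, next highest 5.06), Ecsit (8.89), Hpdl (6.37), Slc24a1 (5.81), Ppef2 (5.65) and Cyp11a1 (5.02), the last of these only just above the floor. TKO EB 7-4-1 was highest for Gbx2 (6.06, the others at 5.0).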

How the results depend on the processing

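The counts of 2987 genes higher and 2145 lower stayed within 1.5 times under a floor of 64, log2(intensity + 32), quantile normalization, median centring, no filter, the mean of all probe sets, array weights, no trend, line as a random block and a fit of the 8 TKO arrays. With line as a fixed replicate block there were 2064 higher and 1084 lower. Without both arrays of line Ta1-12 there were 1861 higher and 1207 lower. Without line Dutch, an alternative chosen after seeing the data, there were 2829 and 2227. Leaving out 1 array gave 2141 to 3472 higher and 1418 to 2761 lower, the lowest without TKO ESC Ta1-12. Of 103 called genes named for the change in TKO, the replicate block kept 98 and the other settings kept 94 or more, with no change of sign. The block lost Hoxa9, Pdk1, Atp5b, Cox6a1 and Krt15. Most of the 103 were named for their small p, so these figures do not hold for called genes at large. Over all called genes the block kept 1977 of the 2987 and 1051 of the 2145. Leaving out line Ta1-12 kept 1846 and 1177. For the difference from WT, the count of genes with a higher change in TKO was 0 to 5 and with a lower change 0 to 21 when 1 array was left out, with 5 and 21 without TKO EB Ta1-12. It was 1 lower without a filter, 4 lower with array weights and 5 lower without both arrays of line Ta1-12, and 0 in each direction with the replicate block, where 362 genes had an unadjusted p under 0.05. The cause was not tested. With 3 TKO ESC arrays, signals near the floor of 32 limit changes of low genes to bounds.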
